A study of Mus musculus with 6 samples.

Results

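The EGF family ligands and receptors are described here in primary mouse pancreatic stellate cells (PSCs) kept at 1% or 21% O2. The 10 genes are the ligands Ereg, Areg, Hbegf, Tgfa, Btc, Epgn and Nrg1 and the receptors Egfr, Erbb2 and Erbb3. They were taken by name from the 55426 features of the deposited count table, with earlier results of these data known. The PSCs, fibroblast precursors that store vitamin A, were isolated from the pancreas of wild-type C57BL/6 adult mice of both sexes and used at low passage. They were seeded in Matrigel in a transwell insert above organoids of mT3, a mouse PDAC cell line. Of the 6 samples, 3 were cultured in normoxia (21% O2) and 3 in hypoxia (1% O2), each for 48 h. All of them were cocultures, and oxygen was the only treatment that differed. Whether the replicates of a condition came from separate PSC lines is not given in the labels of these samples, and p-values then measure only the spread between these samples. RNA was taken from the PSC compartment by poly(A) libraries, and only RNA, not protein, was measured.

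EGF family ligands are made as membrane-anchored precursors and are released by metalloproteases of the ADAM family. Areg, Tgfa, Epgn and Egf bind EGFR, Ereg, Btc and Hbegf bind both EGFR and ERBB4, and Nrg1 binds ERBB3 and ERBB4. ERBB2 has no known soluble ligand and acts as the partner of the other receptors, while ERBB3 has little kinase activity of its own. In the pancreas, EGFR signaling in epithelial cells is known for its part in tumor formation. The comparison addresses which of these ligands PSCs could supply to tumor cells, and whether oxygen changes their RNA.

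Library totals ran from 24749601 to 25914892 counts in normoxia and from 25847719 to 31925054 in hypoxia. Levels are given as CPM, counts scaled to a common library size. A level below 3 counts, which is 0.0940 to 0.121 CPM in these libraries, was read as at the limit of detection, and this limit covers counting error only. All 10 genes of a list of known hypoxia-induced genes were called higher in the samples labelled 1% O2, among them Car9 (log2 fold change 5.13) and Egln3 (3.61). Among the cell type marker lists, stellate cell and fibroblast markers had the highest sums. Their 12 markers summed to between 28462 and 35660 CPM in normoxia and between 30496 and 35343 CPM in hypoxia. Macrophage and other immune markers were present in every sample and lower in hypoxia, with 14 markers summing to 1018, 1819 and 1423 CPM in normoxic replicates 1, 2 and 3 and to 518, 937 and 631 CPM in the hypoxic replicates. Of these 14 markers, 10 were called lower and 0 higher by edgeR, and 0 were absent from the libraries. Over all tested genes 15.3% were called lower and 18.9% higher. In bulk RNA fewer cells of a type and less RNA per cell cannot be told apart. Of 19 epithelial markers that the tumor cells could bring in, 17 had a mean under 1 CPM over the 6 samples and Esrp1 and Ocln had 0 counts in every sample. Without Krt19, the epithelial list summed to between 5.24 and 7.06 CPM in normoxia and between 6.72 and 8.20 CPM in hypoxia. Krt19 itself rose from 0.715 to 22.1 CPM, while Epcam, Cdh1 and Krt8 stayed below 0.1 CPM in both group means. Cldn3, Spint1, Spint2 and Muc1 were higher in each hypoxic than in each normoxic sample, of which Spint1 and Muc1 were tested and not called. The most abundant of them was Muc1 at 2.57 and 3.83 CPM. St14 went the other way and was called lower, with means of 1.01 CPM in normoxia and 0.496 CPM in hypoxia and overlapping samples. The part of tumor cell RNA in any result was not tested.

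Hypoxic PSCs held more RNA of most EGF family ligands. Btc, Ereg and Areg rose most, by 6.01-fold, 5.67-fold and 3.54-fold, Hbegf and Nrg1 rose by less, and Tgfa fell. Among the receptors Egfr rose by 1.53-fold. Of the 10 members 9 could be tested, and 6 were called higher and 1 lower by edgeR's quasi-likelihood test. A gene was called when its Benjamini-Hochberg adjusted p over all tested genes was under 0.05 and its linear fold change was beyond 1.5. By this rule 34.2% of the 16207 tested genes were called, 18.9% higher and 15.3% lower. Groups of samples did not overlap in 8 of the 9 tested members, against 68.9% of all tested genes. In 7 of these 8 the hypoxic samples were the higher ones, as they were in 34.9% of all tested genes. Each tested member had at least 13 counts in every normoxic sample, so none entered the test through its hypoxic samples alone.

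**Figure D1:**
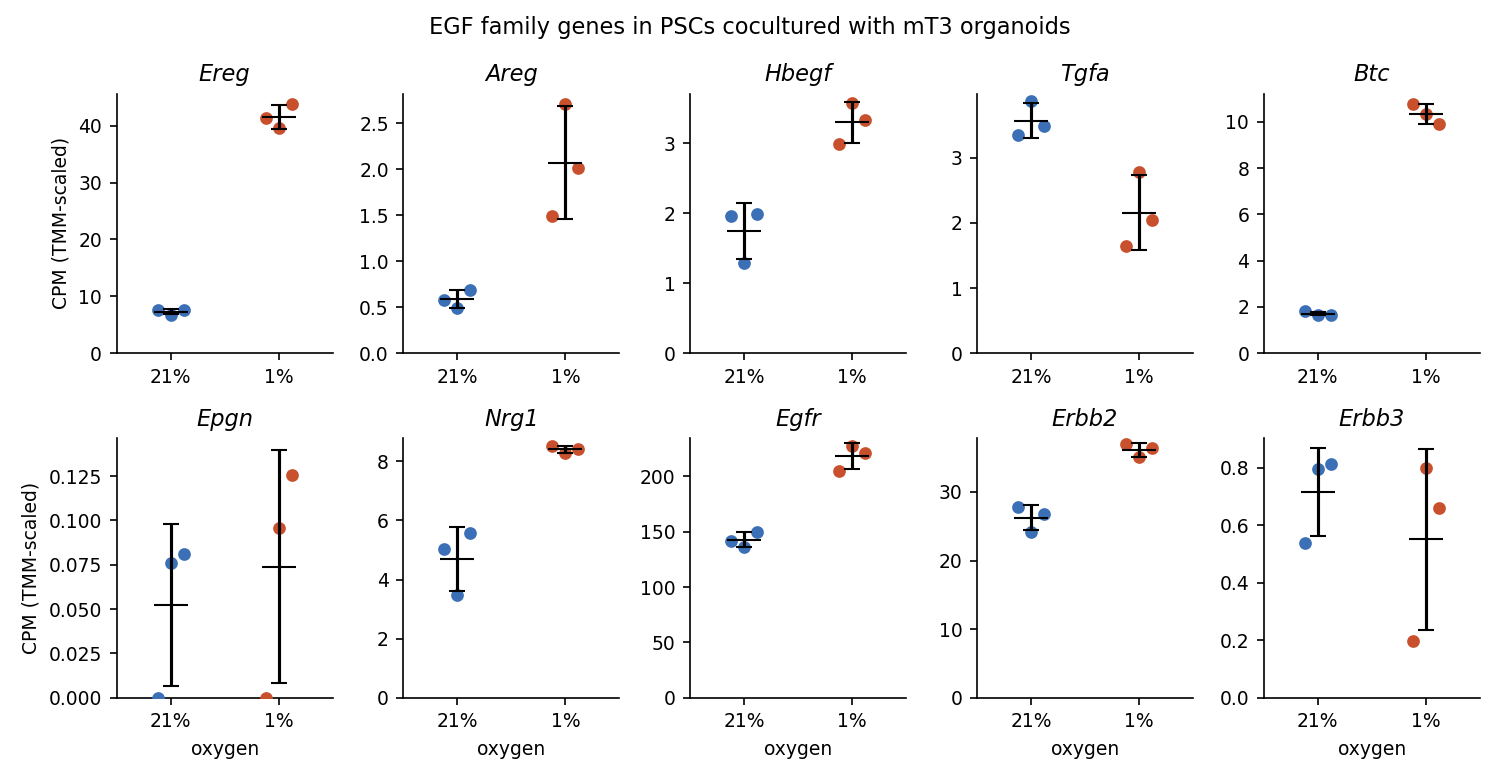
Level of each of the 10 members in TMM-scaled CPM (y axis, from 0, a separate scale for each gene) in PSCs at 21% and 1% O2 (x axis). Points are samples, 3 per condition, and black bars are mean ± SD. The hypoxic samples lie above the normoxic samples for 7 genes, below them for Tgfa, and overlap them for Epgn and Erbb3.

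Epiregulin, encoded by Ereg (ENSMUSG00000029377, chromosome 5 of GRCm38, 91074622 to 91093646, plus strand), was the most abundant ligand RNA. It was at 7.66, 6.79 and 7.55 CPM in normoxic replicates 1, 2 and 3 and at 41.4, 39.6 and 43.8 CPM in the hypoxic replicates. All hypoxic samples lay far above all normoxic ones, and the samples of a condition were close together. The log2 fold change was 2.50 with a standard error of 0.08 (adjusted p = 5.14e-08 from edgeR). Of the exons of Ereg, 141 bases overlap Gm19610 on the opposite strand, and the strand setting of the counting is not given in the sources used here. Gm19610 had means of 0.0636 CPM in normoxia and 0.192 CPM in hypoxia, far below those of Ereg.

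Betacellulin, encoded by Btc (ENSMUSG00000082361, chromosome 5, 91357261 to 91402994, minus strand), had the largest log2 fold change of the tested members. It was at 1.81, 1.67 and 1.66 CPM in normoxia and at 10.8, 10.3 and 9.90 CPM in hypoxia. The groups were clearly apart and the spread within each was small. The log2 fold change was 2.59 with a standard error of 0.13 (adjusted p = 4.27e-07 from edgeR), and its 95% interval of 2.30 to 2.87 overlapped that of Ereg, 2.33 to 2.68.

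Amphiregulin, encoded by Areg (ENSMUSG00000029378, chromosome 5, 91139599 to 91148432, plus strand), was scarce in normoxia, with 15, 13 and 17 counts against 38, 85 and 64 in hypoxia. These counts equal 0.577, 0.493 and 0.690 CPM in normoxia and 1.49, 2.71 and 2.01 CPM in hypoxia. Every hypoxic sample was above every normoxic one, but the hypoxic samples differed more among themselves than for Ereg or Btc. The log2 fold change was 1.82 with a standard error of 0.30 (adjusted p = 0.000603 from edgeR). The hypoxic samples kept the same order for Areg as for the summed macrophage markers, lowest in replicate 1 and highest in replicate 2, whereas the normoxic samples did not. The same held for Hbegf, Egfr and Erbb3, and the part of these cells in the levels of these 4 genes was not tested.

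The genes of these ligands form a cluster. In the order Epgn, Ereg, Areg and Btc they span bases 91027464 to 91402994 of chromosome 5, with gaps of 39.4 kb, 46.0 kb and 209 kb between neighbours. Within 500 kb of either end of this span, 9 other genes could be tested, of which 4 were called higher and 1 lower, beside 18.9% and 15.3% of all tested genes. The genes called higher were the chemokine genes Cxcl2, Cxcl1, Cxcl5 and Pf4, on the side of Epgn. Cxcl2, a neutrophil attractant, had a log2 fold change of 3.52 between means of 0.921 ± 0.243 CPM in normoxia and 10.6 ± 1.79 CPM in hypoxia (SD, n = 3 each). Pf4, a platelet and macrophage chemokine gene, was at 3.73, 8.24 and 6.21 CPM in normoxia and at 11.8, 26.4 and 14.1 CPM in hypoxia, in both conditions in the sample order of the summed macrophage markers, whose part was not tested. Mthfd2l, a mitochondrial folate enzyme gene between the chemokine genes and the ligands, was at 9.24 ± 0.519 and 9.13 ± 0.927 CPM (SD, n = 3 each), with a log2 fold change of -0.02. Parm1, beyond Btc, had a log2 fold change of -0.03. The gene called lower was the pseudogene Gm5558, with a log2 fold change of -0.89. The rise thus did not extend to each tested gene of the region.

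**Figure D2:**
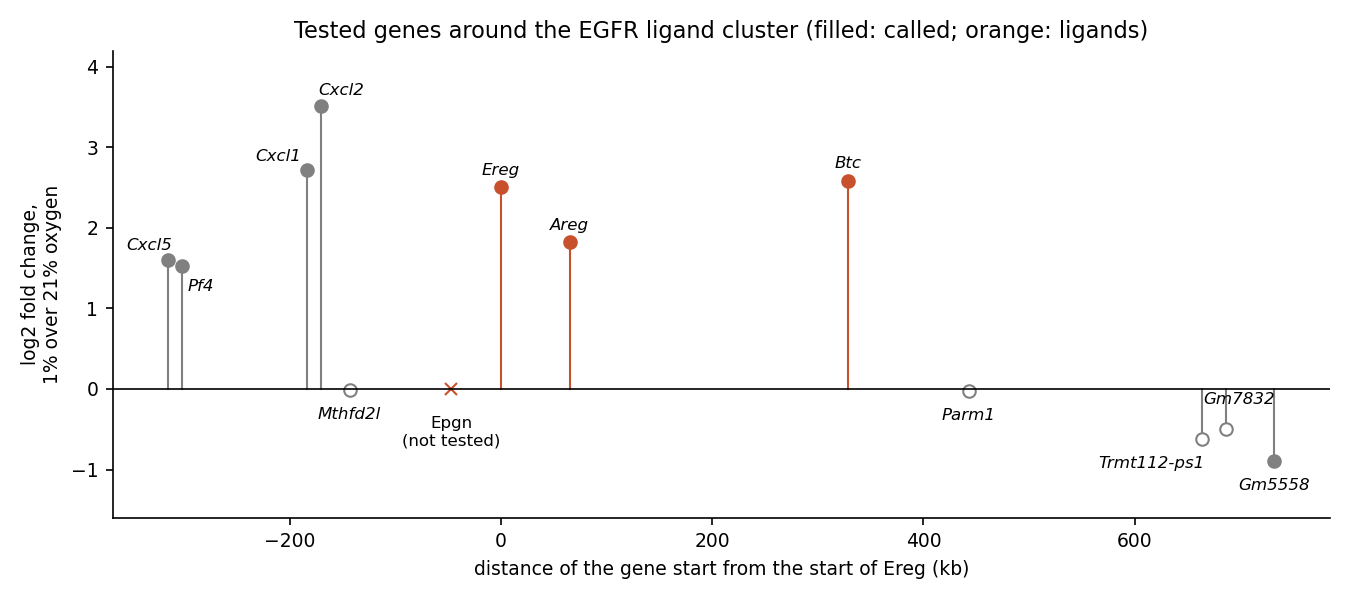
Log2 fold change, 1% over 21% O2 (y axis), of the tested genes within 500 kb of the Epgn, Ereg, Areg and Btc cluster, against the distance of each gene's start from that of Ereg in kb (x axis). Ligands are orange, filled circles were called by edgeR, and a cross marks Epgn, which was not tested. The ligands Ereg, Areg and Btc and 4 chemokine genes lie above 0, with Mthfd2l between them at -0.02.

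Epigen, encoded by Epgn (ENSMUSG00000035020, chromosome 5, 91027464 to 91035215, plus strand), on the other side of Ereg from Areg, was at or near the limit of detection. It had 0, 2 and 2 counts in normoxia and 0, 3 and 4 in hypoxia. It failed the filter on low counts, and no fold change is given.

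The promoter windows of the cluster ligands that could be matched are shown with that of Tgfa, the ligand that fell, since Btc and Areg rose, Tgfa fell and Epgn was too scarce to test. They run from 250 bases before to 50 after the RefSeq start (GRCm38.p6). Capitals mark motifs searched on both strands: ACGTG and GCGTG, the core of the hypoxia response element bound by hypoxia-inducible factors, TGANTCA for AP-1, TGACGTCA for the cAMP response element (CRE), and TATAAA for the TATA box. Of the 15 EGF family genes listed, 10 had a window, and Ereg was not among them.
Btc, chr5:91402945-91403244, minus strand: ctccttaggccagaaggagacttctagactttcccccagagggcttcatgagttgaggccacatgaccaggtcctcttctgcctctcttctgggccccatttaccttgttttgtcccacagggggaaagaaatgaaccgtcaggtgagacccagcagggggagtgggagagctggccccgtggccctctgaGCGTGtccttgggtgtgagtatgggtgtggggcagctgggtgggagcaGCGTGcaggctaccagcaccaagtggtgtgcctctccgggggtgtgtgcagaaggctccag
Areg, chr5:91139349-91139648, plus strand: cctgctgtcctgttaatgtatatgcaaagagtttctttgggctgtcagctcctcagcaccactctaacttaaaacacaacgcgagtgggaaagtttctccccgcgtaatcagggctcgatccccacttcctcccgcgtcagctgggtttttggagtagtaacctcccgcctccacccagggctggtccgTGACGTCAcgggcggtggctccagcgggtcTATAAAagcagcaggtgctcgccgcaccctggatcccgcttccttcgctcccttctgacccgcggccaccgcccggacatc
Epgn, chr5:91027267-91027566, plus strand: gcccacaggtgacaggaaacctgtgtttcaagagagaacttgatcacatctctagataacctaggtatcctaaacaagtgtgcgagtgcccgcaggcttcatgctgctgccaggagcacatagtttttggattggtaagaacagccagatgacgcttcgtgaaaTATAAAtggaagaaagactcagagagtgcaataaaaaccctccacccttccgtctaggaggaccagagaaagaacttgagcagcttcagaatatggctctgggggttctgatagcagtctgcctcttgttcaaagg
Tgfa, chr6:86194972-86195271, plus strand: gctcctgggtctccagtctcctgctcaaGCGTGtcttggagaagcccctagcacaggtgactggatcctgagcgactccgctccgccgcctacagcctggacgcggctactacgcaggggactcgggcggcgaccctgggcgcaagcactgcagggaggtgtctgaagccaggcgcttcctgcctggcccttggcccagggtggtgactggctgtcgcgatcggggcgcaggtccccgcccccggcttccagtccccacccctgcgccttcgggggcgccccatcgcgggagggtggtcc
The Btc window held GCGTG from positions -59 and -11 relative to the start, and the Tgfa window held it from position -222. Of all 32851 windows, 32.4% held GCGTG, 19.6% ACGTG and 43.8% at least one of them. The Areg window held neither, but held the CRE letters from -61 and a TATAAA from -31, motifs present in 1.79% and 13.6% of all windows. Epgn held TATAAA from -86. None of the 4 windows held TGANTCA, which 7.81% of all windows did. A loose NF-kB motif, not marked by capitals, occurred in the Btc, Areg and Tgfa windows and in 50.8% of all windows. A match is a description of the letters and not evidence of binding.

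Among the ligands outside this cluster, Hbegf and Nrg1 were higher and Tgfa was lower in hypoxia. Heparin-binding EGF-like growth factor, encoded by Hbegf (ENSMUSG00000024486), was at 1.96, 1.29 and 1.99 CPM in normoxia and at 2.98, 3.57 and 3.33 CPM in hypoxia. Its samples did not overlap between conditions, and the log2 fold change was 0.92 with a standard error of 0.21 (adjusted p = 0.00412 from edgeR). Neuregulin 1, encoded by Nrg1 (ENSMUSG00000062991, chromosome 8, 31814551 to 32884029, minus strand), had levels of 5.04, 3.49 and 5.56 CPM in normoxia, against 8.52, 8.26 and 8.42 CPM in hypoxia. Here the hypoxic samples were nearly equal and normoxic replicate 2 was the low one. The log2 fold change was 0.84 with a standard error of 0.16 (adjusted p = 0.00175 from edgeR). Nrg1 has 18 annotated transcripts that encode several isoforms, which the counts per gene do not separate, and 482 bases of its exons overlap Gm26578 on the opposite strand.

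Transforming growth factor alpha, encoded by Tgfa (ENSMUSG00000029999, chromosome 6, 86195223 to 86275719, plus strand), was the only member called lower. Of its exons, 118 bases overlap Gm43917 on the opposite strand. It was at 3.35, 3.87 and 3.49 CPM in normoxia and at 1.65, 2.78 and 2.04 CPM in hypoxia, 1.65-fold lower by the fit. All hypoxic samples were below all normoxic ones, with hypoxic replicate 2 nearest to them. The log2 fold change was -0.72 with a standard error of 0.21 (adjusted p = 0.0148 from edgeR). Without hypoxic replicate 1 it was -0.57 (adjusted p = 0.0505 from edgeR) and without hypoxic replicate 3 it was -0.68 (adjusted p = 0.0558 from edgeR), so the call did not hold without either library. In both conditions the samples had the same order for Tgfa as for the summed macrophage markers, lowest in replicate 1 and highest in replicate 2, and these markers were also lower in hypoxia. Their part in the fall of Tgfa was not tested.

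**Figure D3:**
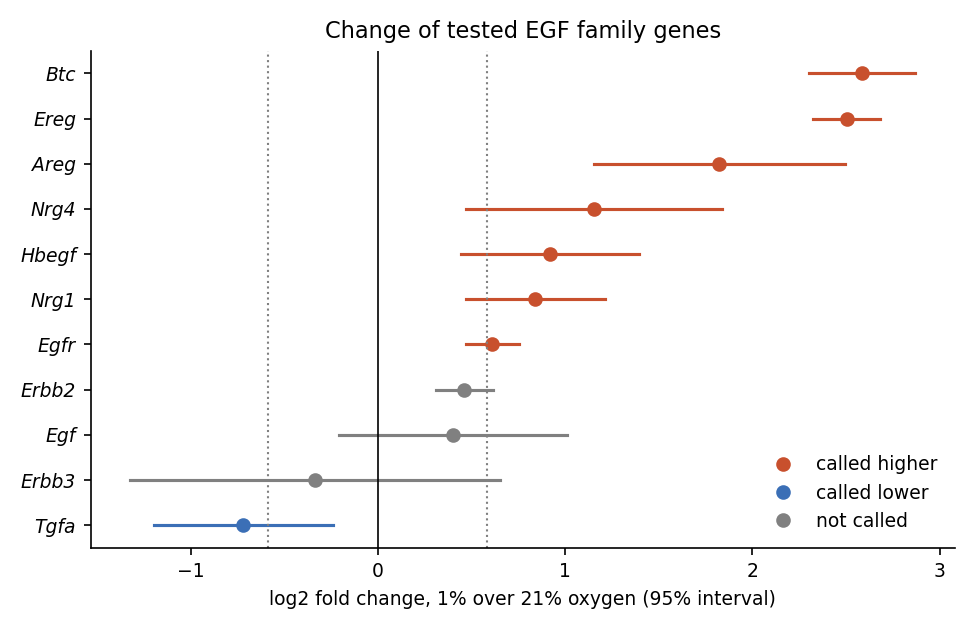
Log2 fold change, 1% over 21% O2 (x axis), of the 11 tested EGF family genes, with 95% intervals from edgeR (horizontal lines). Dotted lines mark a linear fold change of 1.5 in each direction. Btc and Ereg lie farthest to the right at 2.59 and 2.50, and Tgfa is at -0.72.

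The receptors had smaller log2 fold changes than Ereg, Btc and Areg. The epidermal growth factor receptor gene Egfr (ENSMUSG00000020122, chromosome 11, 16752203 to 16918158, plus strand) was at 141, 137 and 150.1 CPM in normoxia and at 205, 228 and 221 CPM in hypoxia. The groups were well apart, with a log2 fold change of 0.61 and a standard error of 0.06 (adjusted p = 3.29e-05 from edgeR). This is 1.53-fold, just past the threshold, and it came to 0.58 on the log2 scale, below that threshold, without hypoxic replicate 2 and without normoxic replicate 2. Erbb2 (ENSMUSG00000062312, chromosome 11, 98412470 to 98437716, plus strand) was at 27.8, 24.2 and 26.8 CPM in normoxia and at 37.0, 35.0 and 36.5 CPM in hypoxia. Of its exons, 9 bases overlap Mien1 on the opposite strand. The groups did not overlap and the adjusted p of Erbb2 was 0.000326 from edgeR, but its 1.38-fold difference was below the fold threshold, with a 95% interval of its log2 fold change from 0.31 to 0.62. Erbb3 (ENSMUSG00000018166, chromosome 10, 128567523 to 128589652, minus strand) had 14, 21 and 20 counts in normoxia and 5, 25 and 21 in hypoxia. These few counts overlapped, and the log2 fold change of -0.34 had a 95% interval from -1.32 to 0.65 (adjusted p = 0.523 from edgeR), which leaves changes in either direction possible. It was 0.03 without hypoxic replicate 1, the library with 5 counts. Erbb4 had 0 counts in each of the 6 samples, a level of at most 3 counts, or 0.121 CPM in the shallowest library.

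The remaining family ligands were given by the list of other ligands and receptors. Nrg4, a neuregulin that binds ERBB4, was at 0.654, 1.44 and 1.05 CPM in normoxia and at 1.85, 2.27 and 2.89 CPM in hypoxia, without overlap. It was called higher, with a log2 fold change of 1.15, a standard error of 0.30 and an adjusted p of 0.00861 from edgeR. Egf itself was at 1.39, 1.82 and 1.26 CPM in normoxia and at 1.37, 1.98 and 2.51 CPM in hypoxia. Its groups overlapped, and the log2 fold change of 0.40 had a 95% interval from -0.21 to 1.01 (adjusted p = 0.221 from edgeR). Nrg2 had between 3 and 8 counts in a sample and was not tested, and Nrg3 had 0 counts in each sample.

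To compare levels between genes, CPM were divided by the length of the merged exons of each gene in kb. Egfr led the receptors in both conditions, at 12.6 ± 0.608 CPM per kb in normoxia and 19.2 ± 1.04 in hypoxia (SD, n = 3 each). Erbb2 followed at 5.04 ± 0.352 and 6.94 ± 0.197 CPM per kb, and Erbb3 was at 0.119 ± 0.0255 and 0.0916 ± 0.0524 CPM per kb (SD, n = 3 each). None of these neighbours overlapped between samples, so the order of the receptors was the same in each of the 6 libraries.

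Among the 11 ligands, Ereg had the highest level per kb in both conditions, 1.78 ± 0.114 CPM per kb in normoxia and 10.1 ± 0.512 in hypoxia (SD, n = 3 each), and no other ligand overlapped it. Below it in normoxia stood Tgfa (0.550), Areg (0.483), Nrg1 (0.454), Btc (0.379) and Hbegf (0.361 CPM per kb), and each neighbour in this order overlapped the next. In hypoxia the order was Btc (2.29), Areg (1.71), Nrg1 (0.812), Hbegf (0.682), Nrg4 (0.384) and Tgfa (0.332 CPM per kb). There Btc and Areg overlapped, as did Nrg4 and Tgfa, while Areg, Nrg1, Hbegf and Nrg4 were apart from each other in turn. Tgfa thus went from rank 2 to rank 7 of the 11 ligands, and Btc from rank 5 to rank 2. The order below Ereg in normoxia depends on the length used, since with the longest transcript in place of merged exons Nrg1 took rank 2 and Areg rank 6.

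The levels of the 7 ligands that bind EGFR summed to 3.78, 3.49 and 3.87 CPM per kb in normoxia and to 14.6, 15.5 and 15.8 CPM per kb in hypoxia. Ereg made up 47.9% ± 1.11 of this sum in normoxia and 65.9% ± 3.56 in hypoxia (SD, n = 3 each). The share of Btc was 10.2% ± 0.626 and 14.98% ± 1.21, and that of Tgfa 14.9% ± 1.92 and 2.16% ± 0.530 (SD, n = 3 each). Areg kept a similar share, 12.97% ± 1.55 and 11.1% ± 3.04, with overlapping samples. Its share depends on its short exons, 1.215 kb in all, and was 3.55% and 3.37% without division by length. Hbegf went from 9.68% ± 1.76 to 4.45% ± 0.281 of the sum although its own level rose (SD, n = 3 each). Shares of RNA describe the makeup of the pool of transcripts and not the amount of secreted ligand. They are given without a test.

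**Figure D4:**
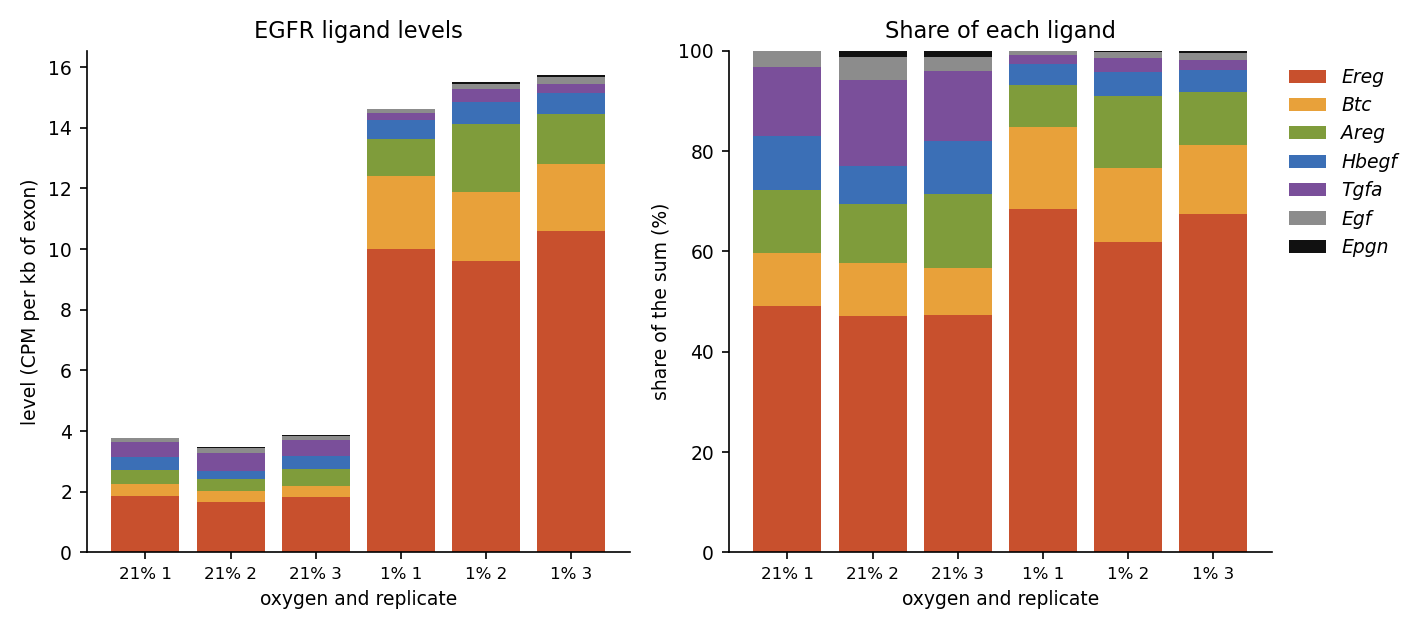
Levels of the 7 EGFR ligands in CPM per kb of merged exon (left, y axis) and as a percentage of their sum (right, y axis), stacked for each of the 6 samples (x axis, oxygen and replicate). The stacked levels reach 3.49 to 3.87 CPM per kb in normoxia and 14.6 to 15.8 in hypoxia, and Ereg is the largest block in each sample.

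Release of the ligands depends on shedding proteases and their cofactors. Of 14 such genes 13 were tested, with 2 called higher, 1 lower and 10 not called, and a median log2 fold change of -0.02 beside -0.0040 over all tested genes. Of all tested genes, 18.9% were called higher and 15.3% lower. Rhbdf2, which encodes iRhom2, a cofactor that brings the sheddase ADAM17 to the cell surface, was at 10.9, 14.1 and 13.9 CPM in normoxia and at 33.2, 33.0 and 34.0 CPM in hypoxia, with a log2 fold change of 1.36 (adjusted p = 4.3e-06 from edgeR). Timp3, which encodes a secreted inhibitor of ADAM17 and other metalloproteases, was also higher, with a log2 fold change of 1.29 between means of 69.8 ± 13.7 CPM in normoxia and 170.1 ± 27.7 CPM in hypoxia (SD, n = 3 each). Adam12, a membrane metalloprotease reported to cleave Hbegf, fell, with a log2 fold change of -2.33 between means of 409 ± 28.9 CPM in normoxia and 81.3 ± 6.14 CPM in hypoxia (SD, n = 3 each). Adam17 itself was at 155 and 189 CPM, a log2 fold change of 0.29 below the fold threshold, and Adam10, the other main sheddase of the family, was at 136 and 115 CPM with -0.23.

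Genes that carry the signal from the receptors mostly stayed within the fold threshold. Of 24 such genes, all tested, 2 were called higher, 1 lower and 21 not called, with a median log2 fold change of -0.13. The share called in either direction over all tested genes was 34.2%. Map2k1, the MEK1 kinase gene, rose, with a log2 fold change of 1.17 between means of 159 ± 7.66 CPM in normoxia and 358 ± 10.1 CPM in hypoxia (SD, n = 3 each). Pik3r1, a regulatory subunit of phosphoinositide 3-kinase, fell by 0.82 on the log2 scale.

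Among 20 feedback inhibitors of the pathway, all tested, 2 were called higher, 1 lower and 17 not called, beside 34.2% of all tested genes called. Their median log2 fold change was 0.18. Spred3, an inhibitor of RAS and RAF signaling, rose, with a log2 fold change of 1.88 between means of 21.7 ± 3.49 CPM in normoxia and 79.6 ± 8.13 CPM in hypoxia (SD, n = 3 each). Errfi1, which encodes the EGFR inhibitor MIG6, rose, with a log2 fold change of 0.85 between means of 147 ± 11.9 CPM in normoxia and 265 ± 9.68 CPM in hypoxia (SD, n = 3 each). Spry4, another inhibitor of this route, went the other way, with a log2 fold change of -1.47 between means of 60.1 ± 10.8 CPM in normoxia and 21.7 ± 0.132 CPM in hypoxia (SD, n = 3 each). Dusp6, a phosphatase for ERK, was at 40.3 ± 5.42 and 40.5 ± 4.49 CPM (SD, n = 3 each). Without hypoxic replicate 1, 5 of the 20 were called.

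Genes known to follow ERK activity did not move one way. Of 17, all tested, 5 were called higher, 3 lower and 9 not called, beside 18.9% of all tested genes called higher and 15.3% lower. Their median log2 fold change was 0.37. Ier3 rose, with a log2 fold change of 3.01 between means of 47.0 ± 8.47 CPM in normoxia and 378 ± 36.4 CPM in hypoxia (SD, n = 3 each), and the AP-1 gene Fosl1 rose too, with a log2 fold change of 1.72 between means of 15.2 ± 0.603 CPM in normoxia and 49.9 ± 1.44 CPM in hypoxia (SD, n = 3 each). Hmga1, a chromatin protein gene, had a log2 fold change of 1.36. Ccnd1, the cyclin D1 gene, fell by 1.22 on the log2 scale, Egr1 by 1.16 and Ier2 by 0.66. Ccnd1 was at 24.8, 44.9 and 36.8 CPM in normoxia and at 10.3, 21.3 and 13.8 CPM in hypoxia, in both conditions in the sample order of the summed macrophage markers, whose part was not tested. The call of Egr1 did not hold without normoxic replicate 3 (adjusted p = 0.0512 from edgeR), and that of Ier2 did not hold without that library or without hypoxic replicate 1. Across these lists and that of the other ligands and receptors, 18 of 76 tested genes were called, against 7 of 9 for the members and a background share of 34.2%. Members and lists were chosen with earlier results of these data known. The lists differed in this count, with 8 of 17 ERK target genes called, 3 of 13 shedding genes, 3 of 24 signaling genes and 3 of 20 feedback inhibitors.

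**Figure D5:**
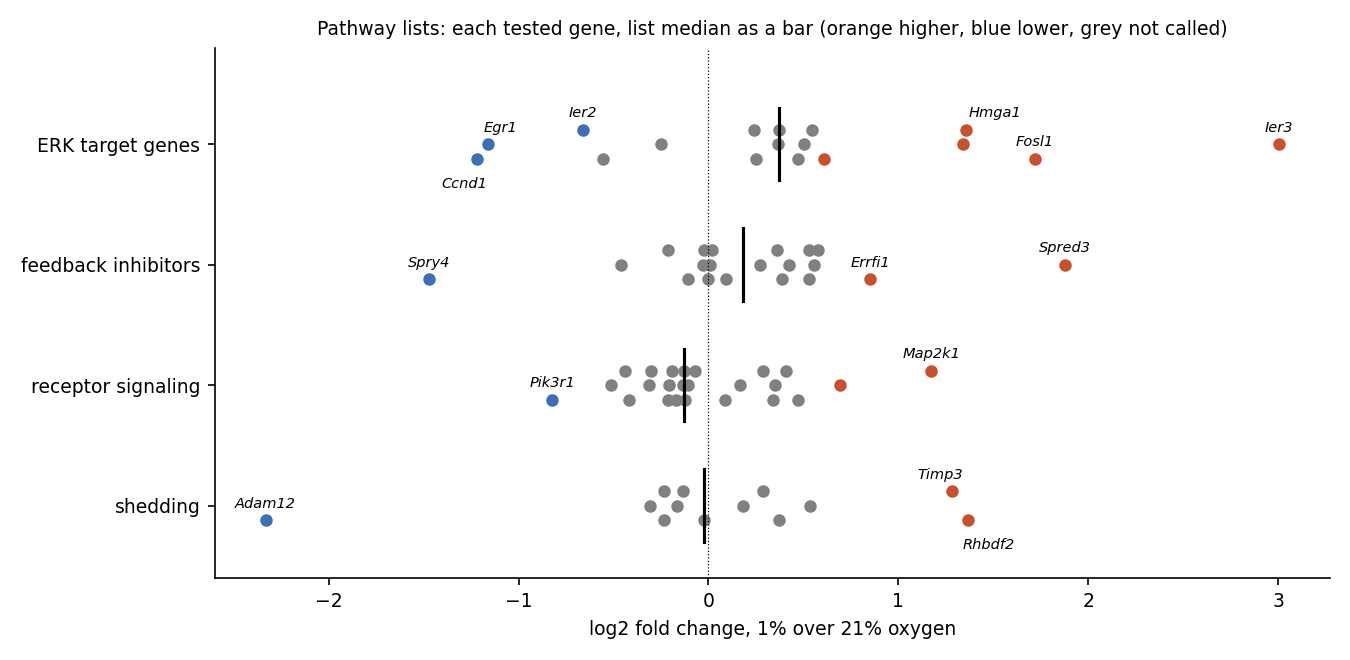
Log2 fold change, 1% over 21% O2 (x axis), of each tested gene in 4 pathway lists (y axis). Points are genes, orange called higher, blue called lower and grey not called by edgeR, labels mark genes named in the text, and black bars are list medians. Medians lie between -0.13 and 0.37, and Ier3 at 3.01 and Adam12 at -2.33 lie farthest out.

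The genes whose profile over the 6 samples was most like that of Btc were found by the root mean square difference of log2 CPM after centring each gene on its mean. Ereg was among the 5 nearest of 14238 candidate genes, with a difference of 0.0857, against a median of 1.29 over the candidates. The others were Pdxp, a vitamin B6 phosphatase gene (0.0751), Gbe1, the glycogen branching enzyme gene (0.0817), Slc39a14, a zinc and iron transporter gene (0.101), and Fam117b (0.104). Their log2 fold changes ran from 2.37 to 2.55, so the likeness mainly reflects a difference of similar size between the conditions in samples with little spread.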

How the data were processed

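RNA-seq of 6 PSC samples, 3 at 21% O2 and 3 at 1% O2, was used. The authors trimmed reads with Cutadapt, mapped them to GRCm38 with STAR 2.6.1b and deposited expected counts per gene from RSEM 1.3.1, whose versions are also in the submitters' processing notes. These estimated counts were not normalized between samples, and 0 of them had a fraction. The annotation release is not given in the sources used here, so names, positions and exon lengths came from GENCODE M21 on GRCm38, in which 55240 identifiers were found and 186 were not. Promoter sequences came from RefSeq (GRCm38.p6).

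edgeR 4.0.16 (R 4.3.3) was run on all 6 samples with filterByExpr, TMM scaling, the quasi-likelihood F test and Benjamini-Hochberg adjustment over the 16207 tested genes. Standard errors came from the log2 fold change and its F value. CPM were computed on TMM-scaled libraries. The fits were tested on simulated data. Library totals are given in the report, and 3 counts were taken as the floor. RSEM divides reads shared by several genes by an estimate.

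The members and gene lists were chosen with earlier results of these data known. Text names all members and other family genes, up to 3 called genes in each direction per list, called neighbours of the ligand cluster, the 5 genes nearest in profile to the member with the largest change, the most abundant gene of each marker list and markers at 0. Adam10, Adam17, Dusp6, Mthfd2l, Parm1, Epcam, Cdh1, Krt8, Cldn3, Spint1, Spint2, Muc1, St14, Sox10, Mbp, Tek and the mesothelial markers under 1 CPM were named after their values were seen, as were Car9 and Egln3. Alternatives were the replicate block, other scalings and filters, DESeq2 1.42.0, limma-voom (limma 3.58.1), other fold thresholds, other lengths and each replicate left out. Numbers 1 to 3 are shared by both conditions, and the labels do not say whether they mark pairs. Over tested genes, deviations from each condition's mean correlated at 0.14, 0.14 and 0.04 for samples of the same number. For samples of different numbers the values ran from -0.13 to 0.0025. The main fit did not take them as pairs, and the replicate block did. Replicate libraries differed by more than sampling noise. A protein table and the reads were not used here. Some called genes and markers of the lists are counted but not reported here by name.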

Additional observations from a re-analysis of the deposited data

How the results depend on the processing

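Ereg, Areg, Hbegf, Btc, Nrg1 and Erbb2 kept their direction and their side of the thresholds in all 15 alternative fits. In the fit with at least 1 CPM in 3 samples Areg passed only through its hypoxic samples, so its call there is no support. The same 7 members were called with DESeq2, limma-voom, DESeq2 size factors, upper-quartile scaling, library totals only and both other filters. A replicate block in edgeR also gave 7 called members (5572 genes in all), and the block changed no call of a member, in DESeq2 either. Leaving out 1 replicate at a time gave 6 to 7 members and 5226 to 5662 genes in all. Tgfa ran from -0.95 to -0.57 in these fits and Egfr from 0.58 to 0.66 on the log2 scale. Each lost its call in 2 of these fits, and the reason was not tested. Erbb3 ran from -0.69 to 0.03, turning from -0.34 to 0.028 without hypoxic replicate 1, and the cause was not tested. With no fold threshold 8 members, 10168 genes in all and 56 genes of the pathway lists passed, of which 10 were in the shedding list, 17 in the signaling list, 13 among the feedback inhibitors and 15 among the ERK target genes. With a fold of 2, 3 members (Btc, Ereg and Areg) and 3156 genes passed, and 1 gene of the signaling list. The feedback inhibitors called ran from 3 to 5 with a replicate left out, and samples with the same number correlated best with each other, a hint from the data and not from the design. The share of Ereg was 40.2% in normoxia and 61.4% in hypoxia with the longest transcript as length, and 44.4% in normoxia without division by length. Of 390 values of 26 other named genes, 387 kept their call and 0 changed direction. Depth limits Epgn, Nrg2, Nrg3, Erbb4 and Erbb3, which had 25 counts or fewer in each sample, and Areg and Nrg4, which had as few as 13 and 17 in a normoxic sample. Epgn was not tested under the main filter, and Erbb3 could not be tested with a minimum of 1 CPM.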

Other observations

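The 8 Schwann cell markers, a cell type known for Erbb3, summed to between 15.9 and 23.6 CPM in normoxia and between 12.1 and 14.6 CPM in hypoxia, with Ngfr (9.76 and 3.45 CPM) the most abundant over the 6 samples but below Mbp (7.13 and 5.44 CPM) in hypoxia, and the defining gene Sox10 had means of 0.378 and 0.377 CPM. Of 5 tested, 1 was called higher and 2 lower. The 8 endothelial markers summed to between 19.7 and 26.05 CPM in normoxia and between 31.2 and 42.8 CPM in hypoxia, with Egfl7 (6.27 and 11.4 CPM) the most abundant over the 6 samples and close to Tek in hypoxia, and with 3 called higher and 1 lower of 7 tested. Of the 5 mesothelial markers only Wt1 was tested, and it was called higher (24.3 and 41.2 CPM), while Msln, Upk3b, Lrrn4 and Upk1b had means under 1 CPM. Col3a1 led the stellate cell markers and Lyz2 the macrophage markers, at 900 ± 256 CPM in normoxia and 413 ± 120 CPM in hypoxia (SD, n = 3 each). Of 12 stellate cell markers 2 were called higher and 2 lower, and of 6 tested epithelial markers 1 was called in each direction. Beside these marker counts, 18.9% of all tested genes were called higher and 15.3% lower.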
